A study of Mus musculus with 620 samples.

Results

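Lungs of aged mice given exenatide for a long term were set against lungs of aged control mice. Exenatide is a peptide drug that activates the receptor of the gut hormone GLP-1 and is used in people to lower blood glucose. The comparison holds 16 of the 620 libraries of the series, chosen by title and tissue label: 8 libraries of exenatide-treated aged mice (LT_A_Ex) and 8 of aged controls (LT_A_ctrl). Another 8 lung libraries, from young controls (LT_Y_ctrl), shared the fit and gave each gene a value with age. Each library is the poly(A) RNA of the lung of 1 animal. No genotype or further treatment is named for these groups, and strain, ages in months, dose and duration of dosing are not in the labels used here. In each of the 3 groups, 5 libraries were sequenced in RNA-seq batch 2 and 3 in batch 3, so batch could be a covariate. Values below are CPM, that is counts scaled to the TMM-adjusted library size, which allow a gene to be compared between libraries but not with other genes. Fold changes are log2, exenatide minus aged control, ± standard errors. Each standard error was worked back from the fold and the F statistic of its test, so it is approximate. That of a difference between tissues can thus be smaller than that of a fold within it. Adjusted p-values are Benjamini-Hochberg values from edgeR's quasi-likelihood test over all genes, and "rose" and "fell" are used for adjusted p under 0.05.

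The mouse lung is among the tissues with much transcript of Glp1r, a G protein-coupled receptor that raises cyclic AMP when it binds its peptide hormone. The airspaces are lined by flat alveolar type 1 cells, which exchange gas with the capillaries, and cuboidal type 2 cells, which secrete surfactant. Alveolar macrophages live on that lining and clear surfactant, debris and microbes. They are known for the surface proteins Marco and Siglec-F, for CD11c (Itgax) and for the chitinase-like protein Ym1 (Chil3). Because whole lung was sequenced, fewer cells of a type and less RNA per cell cannot be told apart.

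Defining transcripts of lung cells were present in every library. Sftpc, the surfactant protein C gene of type 2 cells, had 8010 to 11800 CPM (median 9810) in exenatide lungs and 8630 to 15400 CPM (median 10000) in aged control lungs. Scgb1a1, the club cell secretoglobin, had medians of 23700 and 27100 CPM in exenatide and aged control lungs, Ager of type 1 cells 1010 and 1210, Foxj1 of ciliated cells 110 and 86.7, and Pecam1 of endothelium 836 and 1010, and none of these 5 genes passed the test. Counts summed to 26365408 to 31927624 reads per exenatide library, 26035443 to 27990231 per aged control and 25881149 to 31564048 per young control. The exenatide libraries B28, B30, B36 and B40 stood apart on the first principal component after removal of the batch effect (21.8% of the variance), with scores of 40.3, 56.1, 49.3 and 42.1. The other 4 exenatide libraries lay between -10.7 and 25.9, and the aged controls between -17.5 and 13.5. At the opposite end were the young controls A51, A53 and A54 of batch 3, with -48.1, -47.9 and -36.1. The other young controls lay between -30.7 and 1.9. B30, B36 and B40 are all 3 exenatide libraries of batch 3, and counts were found for 20247, 19852 and 19948 genes in them, against at least 20842 in every other lung library.

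Of 17743 genes tested, 67 rose (0.378% of the genes) and 41 fell (0.231%) after exenatide, with a smallest adjusted p of 0.00899. Another count, at an unadjusted p under 0.05, gave 1700 genes higher and 1297 lower of the 17743. The unadjusted counts of gene lists below are to be read against these. Of all genes tested, 51% had a positive fold. In all, 18 genes (0.101%) had CPM values that did not overlap between the groups, 10 higher and 8 lower, and 13 of these 18 passed the test. The exenatide libraries varied more among themselves than the aged controls: the SD of log2 CPM was larger in the exenatide group for 66.2% of the genes. B28 was the highest exenatide library for 42 of the 67 genes that rose, against 17% of all genes tested. Leaving out 1 aged control at a time gave 4 to 14 called genes without B15, B16, B19, B24, B27, B34 or B39, and 166 without B41. Leaving out 1 exenatide library gave 4 genes without B30, 6 without B28, 16 without B36, 47 without B14, 64 without B40, and 304, 307 and 403 without B26, B13 and B25. Ahnak2, Hdac9 and Tcim were the 3 genes still called without both B28 and B30.

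**Figure D1:**
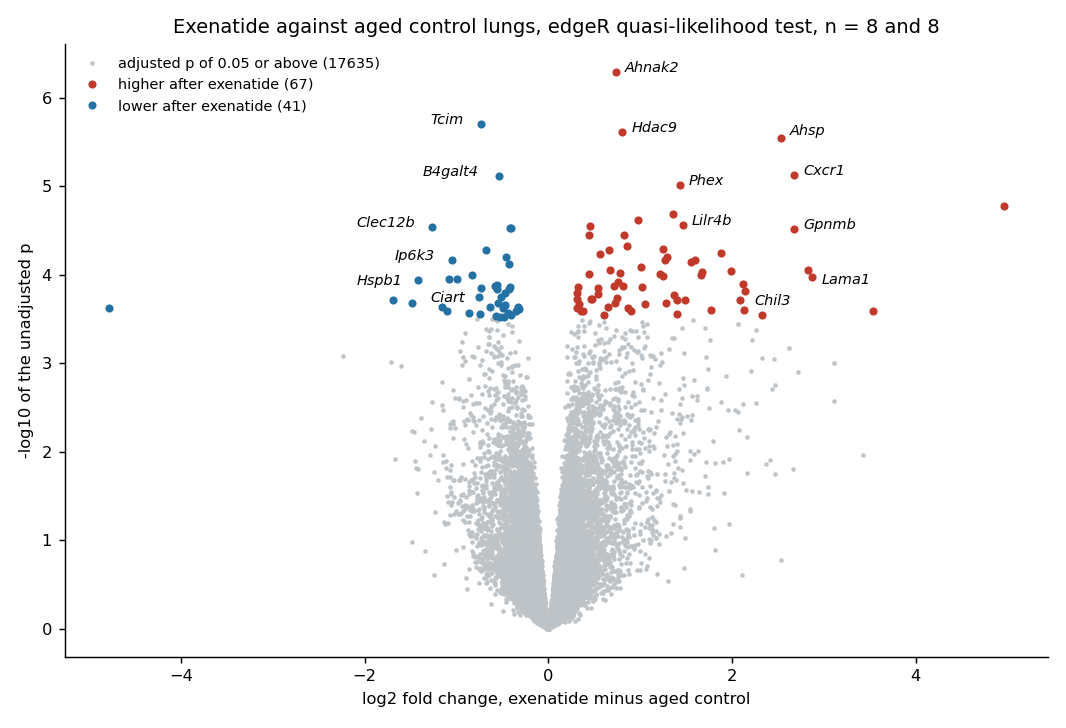
Each point is 1 of the 17743 genes tested in lung, by its log2 fold change (exenatide minus aged control, x axis) and the -log10 of its unadjusted p (y axis). The 67 red genes rose and the 41 blue genes fell at an adjusted p under 0.05, and the larger folds lie mostly on the side of the rises, such as Gpnmb, Cxcr1 and Lama1.

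Genes of alveolar macrophages were among those that rose. Of 20 alveolar macrophage genes tested, 4 rose (Gpnmb, Chil3, Itgax and Atp6v0d2) and 0 fell, with a median log2 fold change of 0.54, against 0.006 over all genes. Over all genes, 0.378% rose and 0.231% fell. At an unadjusted p under 0.05, 13 of the 20 were higher and 2 lower, against 1700 and 1297 of all 17743 genes. Chil3 had 651 to 9570 CPM (median 1870) in exenatide lungs and 529 to 1090 CPM (median 700) in aged control lungs, a log2 fold change of 2.14 ± 0.47 (adjusted p = 0.0448). The libraries B28 (9570 CPM) and B30 (7180 CPM) were far above the rest. In all, 6 exenatide libraries exceeded every aged control, and B25 and B26 lay among the controls. Chil3 has a close copy in the genome, so how reads were split between copies is uncertain.

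Gpnmb, a transmembrane glycoprotein of lipid-laden macrophages, had 20.8 to 582 CPM (median 62.8) in exenatide lungs and 14 to 29.2 CPM (median 21.4) in aged control lungs, and rose by 2.68 ± 0.51 (adjusted p = 0.0332). B28 again held the most (582 CPM), followed by B30 (190 CPM), and B25 was the only exenatide library within the control range. Itgax, the alpha chain of CD11c, had 68.5 to 370 CPM (median 111) after exenatide and 48.0 to 79.2 CPM (median 66.6) in aged controls, a rise of 1.28 ± 0.29 (adjusted p = 0.0466). Atp6v0d2, a proton pump subunit of macrophages and osteoclasts, had 44.6 to 292 CPM (median 115) after exenatide and 38.4 to 70.1 CPM (median 47.2) in aged controls, a rise of 1.41 ± 0.33 (adjusted p = 0.0484). Both genes again had their 2 highest values in B28 and B30. Without B28 alone the fold of Gpnmb was 1.74 (adjusted p = 0.0601). Without B28 and B30 the log2 fold changes kept their sign and were 1.08 for Chil3, 1.34 for Gpnmb, 0.66 for Itgax and 0.80 for Atp6v0d2, with adjusted p of 0.236, 0.0825, 0.194 and 0.271. The list median was then 0.39, and 0 of its 20 genes passed the test. Within batch 2 alone the 4 folds were 2.06, 2.78, 1.21 and 1.18, and within batch 3 alone 2.23, 2.48, 1.36 and 1.71, none passing the test in either.

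**Figure D2:**
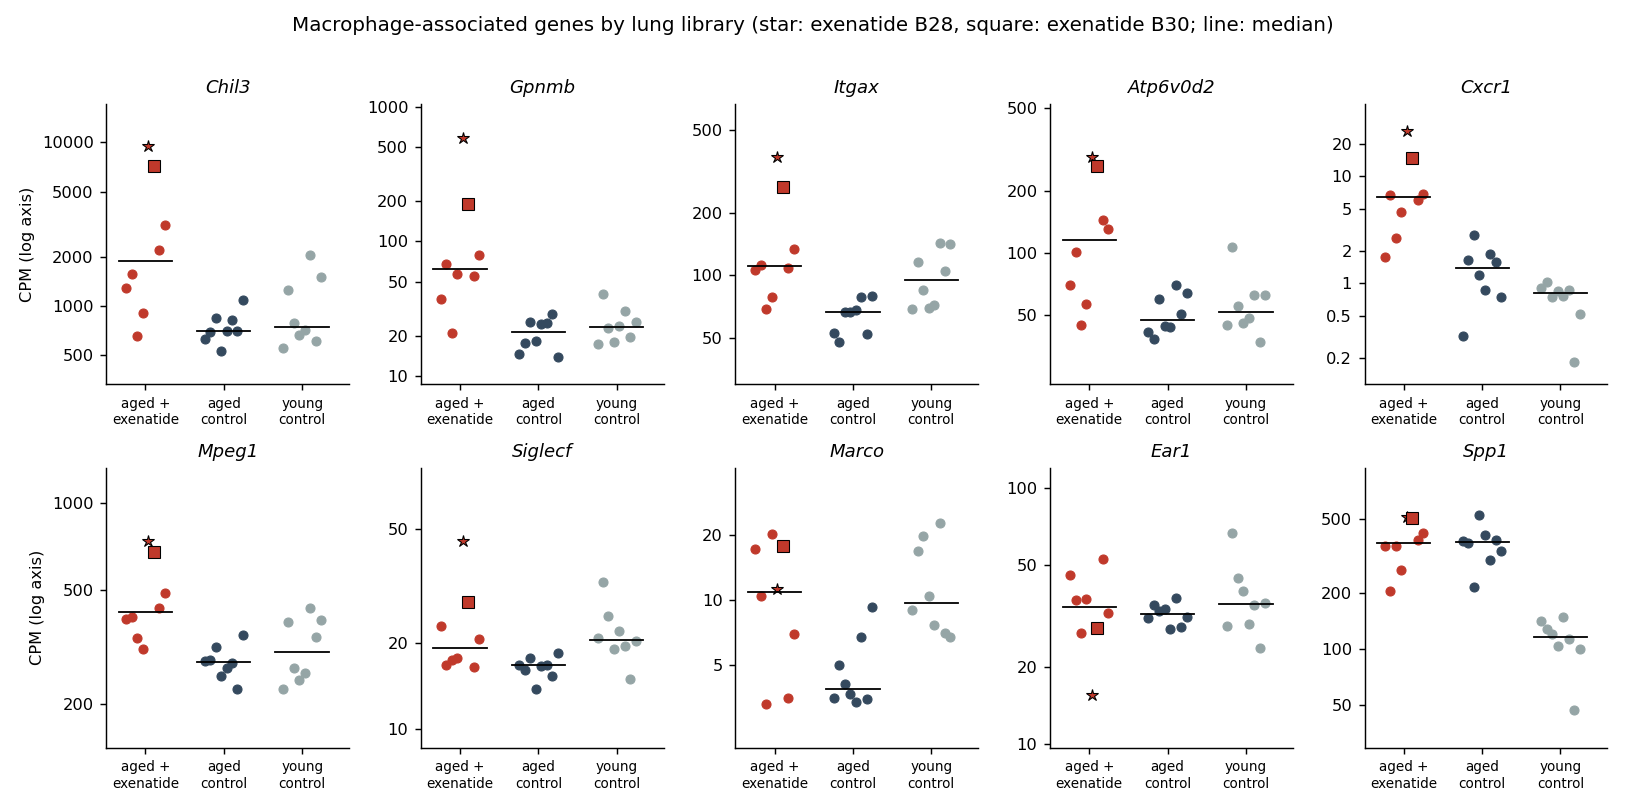
CPM on log axes in each lung library, by group, with a line at the group median. The star (B28) and the square (B30) top the exenatide group for Chil3, Gpnmb, Itgax, Atp6v0d2, Cxcr1, Mpeg1, Siglecf and Spp1. For Marco and Ear1 they lie inside or below the range of the other exenatide lungs. Spp1 spans 205 to 512 CPM after exenatide and 216 to 522 CPM in aged controls.

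The other alveolar macrophage genes did not all follow. Marco, a scavenger receptor, had 3.32 to 20.2 CPM (median 10.8) in exenatide lungs and 3.36 to 9.30 CPM (median 3.89) in aged control lungs (1.22 ± 0.37, adjusted p = 0.109). The highest Marco value was in B26, not in B28 (11.3 CPM). Siglecf, the lectin that marks resident alveolar macrophages, had 16.5 to 45.7 CPM (median 19.2) and 13.8 to 18.5 CPM (median 16.8) in exenatide and aged control lungs (0.49 ± 0.18, adjusted p = 0.178). B28 (45.7 CPM) and B30 (27.9 CPM) were the highest exenatide lungs for Siglecf. The secreted ribonuclease gene Ear1 (0.09 ± 0.19, adjusted p = 0.830) and the keratin gene Krt79 (0.08 ± 0.23, adjusted p = 0.868) did not pass the test. Ear1 was lowest of all lungs in B28 (15.5 CPM), the library richest in Chil3. Spp1, osteopontin, had medians of 371 CPM in exenatide lungs and 375 CPM in aged control lungs (0.04 ± 0.20, adjusted p = 0.941). B28 (512 CPM) and B30 (502 CPM) were the highest exenatide lungs for Spp1 too, within the range of the aged controls. Cathepsin K (Ctsk, 2.07 ± 0.49, adjusted p = 0.0531), the endosomal glycoprotein Cd68 (0.96 ± 0.23, adjusted p = 0.0545) and the lipid receptor Trem2 (1.48 ± 0.38, adjusted p = 0.0648) had positive fold changes just short of the threshold, and B28 was highest for all 3. Negative folds were found for the fatty acid-binding protein gene Fabp1 (-1.48 ± 0.49, adjusted p = 0.135) and for carbonic anhydrase 4, Car4 (-0.70 ± 0.19, adjusted p = 0.0788). Within batch 3 alone Fabp1 fell, by 3.52 ± 0.45 on the log2 scale (adjusted p = 0.0244), and was the 1 gene of the list called there. The genes of this paragraph were chosen after their values were seen. The summed CPM of the list ran from 2010 to 13100 in exenatide lungs and from 2060 to 2530 in aged control lungs, and no defining marker was at 0 in a group. The highest sum was in B28, where Chil3 alone had 9570 CPM.

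Of 18 genes of monocytes and interstitial macrophages, 1 rose and 0 fell, with a median of 0.18. Myeloid genes outside these lists also rose. Cxcr1, a receptor of CXC chemokines, had 1.78 to 26.5 CPM (median 6.38) after exenatide and 0.322 to 2.86 CPM (median 1.40) in aged controls, one of the larger rises (2.68 ± 0.47, adjusted p = 0.0223). The inhibitory receptor gene Lilr4b rose by 1.47 ± 0.28 (adjusted p = 0.0332) and its relative Lilrb4a by 1.01 ± 0.21 (adjusted p = 0.0429), a pair of near-identical copies between which reads may be split. Mpeg1, the pore-forming perforin-2 of phagocytes, had 311 to 740 CPM (median 417) after exenatide and 226 to 347 CPM (median 281) in aged controls (0.75 ± 0.17, adjusted p = 0.0459). For each of Cxcr1, Lilr4b, Lilrb4a and Mpeg1, 6 of 8 exenatide lungs lay above all aged controls, with B28 highest. Cd177, a surface glycoprotein of neutrophils, rose by 2.14 ± 0.49 (adjusted p = 0.0466), with 338 CPM in B28 against at most 103 CPM in the other exenatide lungs and 29 CPM in aged controls. Without B28 and B30 the folds were 1.28 for Cd177 (adjusted p = 0.216) and 0.48 for Mpeg1 (adjusted p = 0.217). Lilrb4a, Mpeg1 and Cd177 were chosen after their values were seen.

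Genes outside the macrophage lists rose without overlap between the groups. Ahnak2, which encodes a very large scaffold-like protein, had 40.4 to 68.4 CPM (median 46.6) in exenatide lungs and 26.3 to 35.2 CPM (median 29.5) in aged control lungs, and rose by 0.74 ± 0.11 (adjusted p = 0.00899), the smallest adjusted p. Young lungs had 32.2 to 58.6 CPM of Ahnak2 (median 47.2). Hdac9, a class IIa histone deacetylase, had 19.1 to 31.6 CPM (median 23.2) after exenatide and 11.2 to 16.7 CPM (median 14.4) in aged controls, a rise of 0.81 ± 0.13 (adjusted p = 0.0127). Both genes were still called without B28 and B30, the rises then being 0.58 for Ahnak2 and 0.74 for Hdac9, each with an adjusted p of 0.0423. Ceacam16, a secreted protein of the carcinoembryonic antigen family known from the inner ear, had 2.29 to 7.89 CPM after exenatide and 0.895 to 1.97 CPM in aged controls (1.36 ± 0.26, adjusted p = 0.0332).

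Further genes without overlap were chosen after their values were seen. Sgpl1, the lyase that breaks down sphingosine 1-phosphate, had 91.4 to 172 CPM (median 114) after exenatide and 68.4 to 90.4 CPM (median 79.2) in aged controls (0.56 ± 0.12, adjusted p = 0.0418). Baz1a, a subunit of a chromatin remodelling complex, had 47.5 to 71.4 CPM after exenatide and 33.8 to 47.1 CPM in aged controls (0.54 ± 0.12, adjusted p = 0.0437). The membrane protein gene Lhfpl2 rose by 1.56 ± 0.32 (adjusted p = 0.0418), though the size came from B28 (69.2 CPM) and B30 (33.4 CPM), and the fold was 0.79 without them. The highest of the other exenatide lungs had 17.0 CPM of Lhfpl2, and the aged controls reached 9.41 CPM.

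Of the genes that rose, 4 that encode lysosomal enzymes are described next, and they too were chosen after their values were seen. Prcp, a carboxypeptidase that removes the last residue after proline, had 63.4 to 113 CPM (median 74.6) after exenatide and 45.5 to 60.2 CPM (median 52.4) in aged controls, without overlap (0.54 ± 0.12, adjusted p = 0.0458). Galc, which removes galactose from galactosylceramide, had 35.6 to 55.9 CPM after exenatide and 24 to 37.8 CPM in aged controls (0.45 ± 0.10, adjusted p = 0.0429). Gla, alpha-galactosidase A, rose by 0.65 ± 0.15 (adjusted p = 0.0466), with 37.8 CPM in B28 against 12.9 to 22.5 CPM in the other exenatide lungs, and its fold was 0.43 without B28 (adjusted p = 0.0601). Manba, beta-mannosidase, rose by 0.33 ± 0.07 (adjusted p = 0.0437). For these 4 enzymes, 8, 6, 7 and 5 of the 8 exenatide lungs exceeded every aged control.

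Of the genes that rose with varied roles, Acox3, a peroxisomal oxidase of branched-chain fatty acids, rose by 0.45 ± 0.09 and the glycolytic aldolase Aldoc by 0.83 ± 0.17 (adjusted p = 0.0347 for each). L3mbtl3, a reader of methylated lysine, rose by 0.46 ± 0.09 (adjusted p = 0.0332) and Zranb3, a helicase of stalled replication forks, by 1.25 ± 0.26 (adjusted p = 0.0418). Slc39a2, a zinc transporter, rose by 1.89 ± 0.39 (adjusted p = 0.0418) and Stra6l, a receptor for retinol-binding protein, by 2.82 ± 0.60 (adjusted p = 0.0429), both highest in B28 (24 and 21 CPM). Kynu, kynureninase of tryptophan breakdown, rose by 1.37 ± 0.31 (adjusted p = 0.0459), Naip2, a cytosolic sensor of bacterial proteins with close copies, by 0.66 ± 0.14 and the lipid receptor gene Gpr55 by 1.29 ± 0.27 (adjusted p = 0.0418 for both). Without B28 and B30 the folds were 0.69 for Zranb3, 1.09 for Slc39a2, 1.66 for Stra6l and 0.90 for Kynu (adjusted p = 0.126, 0.149, 0.213 and 0.232). Slc39a2, Kynu, Naip2 and Gpr55 were chosen after their values were seen. Lama1, a laminin chain of basement membranes, differed from the others in its distribution. It had 23.8 CPM in B14, 17.6 in B26 and 11.4 in B28, 0.731 to 4.22 CPM in the other 5 exenatide lungs and 0.389 to 1.91 CPM in aged control lungs (2.88 ± 0.62, adjusted p = 0.0435). Within batch 3 alone its fold was 0.98 (adjusted p = 0.359), and within batch 2 alone 4.19 (adjusted p = 0.117).

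Among the 41 genes that fell, Clec12b and Rd3 were 2 of those that did not overlap between the groups. Clec12b, an inhibitory C-type lectin receptor, had 2.19 to 7.98 CPM (median 5.57) in exenatide lungs and 9.28 to 17.6 CPM (median 11.7) in aged control lungs (-1.27 ± 0.25, adjusted p = 0.0332). Rd3, known from photoreceptors as a regulator of guanylate cyclase and chosen after its values were seen, had 5.12 to 8 CPM after exenatide and 8.42 to 10.4 CPM in aged controls (-0.56 ± 0.12, adjusted p = 0.0438). Tcim, a small regulator of transcription, had 28.8 to 52.9 CPM (median 33.7) after exenatide and 49.4 to 80.3 CPM (median 55.6) in aged controls, a fall of 0.73 ± 0.12 on the log2 scale (adjusted p = 0.0127). B13 was the exenatide lung that overlapped with the controls for Tcim, and Tcim was called in 23 of 24 alternative analyses, more than any other called gene named here.

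Other falls included cell surface receptors and enzymes of inositol phosphates. Cckar, a receptor of cholecystokinin, had 58.9 to 110 CPM (median 74.9) after exenatide and 84.8 to 118 CPM (median 102) in aged controls (-0.42 ± 0.08, adjusted p = 0.0332). Gprc6a, a receptor that senses amino acids, had 1.11 to 5.04 CPM and 2.13 to 9.11 CPM in exenatide and aged control lungs (-1.16 ± 0.27, adjusted p = 0.0466). Inpp5a, a phosphatase that ends inositol trisphosphate signals, fell by 0.43 ± 0.09 (adjusted p = 0.0429) and Ip6k3, a kinase that makes inositol pyrophosphates, by 1.05 ± 0.22 (adjusted p = 0.0418). For both inositol phosphate enzymes, B13, B25 and B26 lay within the range of the controls and the other 5 exenatide lungs lay below it. Enho, the precursor of the peptide adropin, fell by 0.99 ± 0.21 (adjusted p = 0.0435), with a median of 5.82 CPM after exenatide and 14.2 CPM in aged controls. The glycosyltransferase B4galt4 fell by 0.54 ± 0.10 (adjusted p = 0.0223), the potassium channel subunit Lrrc26 by 0.68 ± 0.14 (adjusted p = 0.0418) and Chn1, a GTPase-activating protein for Rac, by 0.46 ± 0.10 (adjusted p = 0.0418). The transcription elongation factor-like gene Tceal8 fell by 0.41 ± 0.08 (adjusted p = 0.0332) and Slc38a5, a glutamine transporter, by 0.56 ± 0.12 (adjusted p = 0.0437). Elf5, an ETS factor of epithelium chosen after its values were seen, fell by 0.33 ± 0.08 (adjusted p = 0.0466).

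**Figure D3:**
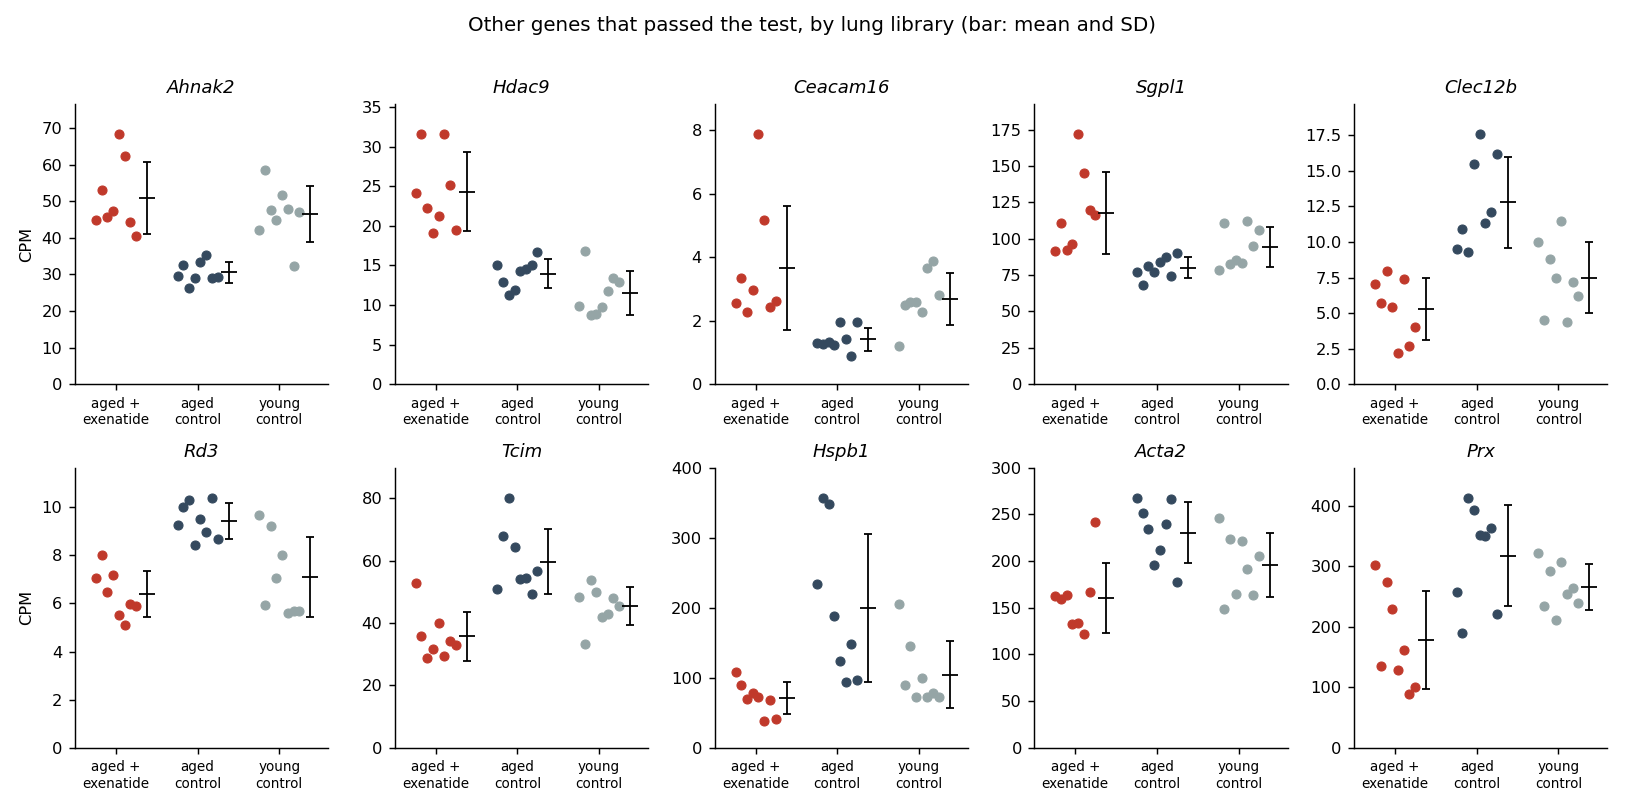
CPM in each lung library, by group, with the mean and SD as a bar at the right of each group. Ahnak2, Hdac9, Ceacam16 and Sgpl1 are higher in every exenatide lung than in any aged control, Clec12b and Rd3 are lower in every exenatide lung, and Tcim, Hspb1, Acta2 and Prx fell with overlap.

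A pair of genes that fell is known for promoter elements that their regulators bind, and the stretches before their start sites are shown for that reason. In this pair of 250-base windows upstream of the RefSeq start (GRCm38.p6, each in the direction of its gene), capitals mark CACGTG, the E-box bound by CLOCK and BMAL1, in Ciart (chr3:95882229-95882478, minus strand) and GAANNTTC, the inverted unit bound by heat shock factor, in Hspb1 (chr5:135887669-135887918, plus strand). The genes and motifs were chosen after the values were seen.
Ciart: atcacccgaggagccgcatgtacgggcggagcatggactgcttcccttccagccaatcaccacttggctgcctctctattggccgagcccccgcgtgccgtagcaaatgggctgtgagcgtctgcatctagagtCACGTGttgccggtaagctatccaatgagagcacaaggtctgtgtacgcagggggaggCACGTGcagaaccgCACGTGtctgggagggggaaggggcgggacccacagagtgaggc
Hspb1: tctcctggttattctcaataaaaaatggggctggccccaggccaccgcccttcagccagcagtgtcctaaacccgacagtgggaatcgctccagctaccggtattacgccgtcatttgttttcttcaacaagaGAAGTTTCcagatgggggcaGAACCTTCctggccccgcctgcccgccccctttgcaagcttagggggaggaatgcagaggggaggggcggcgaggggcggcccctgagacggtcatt
Ciart holds 3 E-boxes, beginning 116, 58 and 44 bases before the start, and Hspb1 holds 2 heat shock units, beginning 117 and 97 bases before it. Both motifs read the same on either strand and do not overlap each other. Of 32851 windows of this length in RefSeq, 6.02% hold at least 1 E-box and 0.0609% at least 3, and 6.69% hold at least 1 heat shock unit and 0.228% at least 2. The cut-offs of 3 and 2 were set by the counts in the genes shown. An E-box is held by 5 of 16 clock genes with such a window, and a heat shock unit by 7 of 14 cytosolic heat shock genes. Of these 2 lists, only Ciart and Hspb1 were called. Such a match describes the letters only.

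Ciart, a repressor in the circadian clock, had 9.81 to 27.2 CPM (median 15.5) in exenatide lungs and 21.1 to 30.6 CPM (median 25.9) in aged control lungs, and fell by 0.74 ± 0.16 on the log2 scale (adjusted p = 0.0437). B13 was the one exenatide lung within the control range. The fold of Ciart was -0.55 in batch 2 alone (adjusted p = 0.331) and -1.10 in batch 3 alone (adjusted p = 0.0435). It was called in 7 of 24 alternative analyses. Of 19 clock genes tested, 0 rose and 1 fell, with a median of 0.02 (-0.12 in batch 2 and 0.20 in batch 3). At an unadjusted p under 0.05, edgeR found 2 of them higher and 4 lower. Dbp, an output gene of the clock, had medians of 76.8 CPM after exenatide and 112 CPM in aged controls (-0.59 ± 0.23, adjusted p = 0.215), and the clock repressors Bhlhe40 (0.56 ± 0.17, adjusted p = 0.114) and Nfil3 (0.66 ± 0.26, adjusted p = 0.201) had positive fold changes. The labels used here do not give the hour at which lungs were taken.

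Hspb1, the small heat shock protein HSP27, had 38.5 to 108 CPM (median 71.4) in exenatide lungs and 94.2 to 358 CPM (median 169) in aged control lungs, and fell by 1.42 ± 0.31 on the log2 scale (adjusted p = 0.0435). The groups met between 94.2 and 108 CPM, and 7 of 8 exenatide lungs lay below every aged control. The aged controls B16 (358 CPM), B19 (349 CPM) and B15 (234 CPM) were highest. Young lungs had 72.1 to 206 CPM (median 84.1). The log2 fold change was -2.48 in batch 3 alone, which holds B16 and B19, and -0.91 in batch 2 alone. Neither passed the test (adjusted p = 0.109 and 0.179). Of 18 cytosolic heat shock genes tested, 0 rose and 1 fell, with a median of -0.23. The small heat shock protein Cryab (-0.45 ± 0.12, adjusted p = 0.0649) and the chaperone Hsp90ab1 (-0.44 ± 0.12, adjusted p = 0.0892) came next in the list, both negative, whereas the co-chaperone Dnajb1 was positive (0.25 ± 0.08, adjusted p = 0.135).

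In the lung wall, single genes of vessels and muscle fell. Acta2, smooth muscle actin, had 122 to 242 CPM (median 160) in exenatide lungs and 177 to 268 CPM (median 237) in aged control lungs (-0.53 ± 0.13, adjusted p = 0.0492). It was the 1 of 18 smooth muscle and pericyte genes that fell, 0 rose, and the list median was -0.28. Calponin (Cnn1, -0.73 ± 0.19, adjusted p = 0.0663), the hypoxia-responsive cytochrome oxidase subunit Cox4i2 of pericytes (-0.55 ± 0.15, adjusted p = 0.0674) and enteric actin (Actg2, -0.55 ± 0.16, adjusted p = 0.0951) were the next members, and 8 of the 18 were lower at an unadjusted p under 0.05. Within batch 3 alone the fold of Acta2 was -0.34. B40 was the exenatide lung with the most Acta2 (242 CPM) and Actg2 (28.8 CPM).

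Prx, periaxin, a scaffold protein of lung capillary endothelium, had 89.7 to 302 CPM (median 148) in exenatide lungs and 190 to 414 CPM (median 352) in aged control lungs (-0.87 ± 0.20, adjusted p = 0.0479). It was the 1 of 12 capillary genes that fell, 0 rose, and the list median was -0.41, with 6 of 12 lower at an unadjusted p under 0.05. Car4, also a marker of one capillary cell type, had 43.7 to 152 CPM and 146 to 196 CPM in exenatide and aged control lungs (-0.70 ± 0.19, adjusted p = 0.0788). The general endothelial list had a median of -0.20, with 0 of 16 genes called in either direction and 0 higher and 4 lower unadjusted.

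No epithelial list member passed the test. The medians were 0.16 for 14 type 2 cell genes, -0.23 for 15 type 1 cell genes, -0.11 for 14 airway secretory genes and -0.03 for 18 ciliated cell genes. Unadjusted edgeR p-values under 0.05 were found for 5, 0, 2 and 0 of these genes upwards and for 0, 6, 5 and 1 downwards. Within the type 2 list, Chil1, a chitinase-like protein also made by macrophages, had 573 to 2450 CPM after exenatide and 477 to 704 CPM in aged controls (0.90 ± 0.23, adjusted p = 0.0630), and the alarmin Il33 had medians of 148 and 93.5 CPM in exenatide and aged control lungs (0.78 ± 0.25, adjusted p = 0.126). Chil1 was highest in B28 (2450 CPM) and B30 (1570 CPM), as Chil3 was. The club cell enzymes Cyp2f2 and Cbr2 had medians of 2450 and 3280 CPM after exenatide and 3350 and 4340 CPM in aged controls (-0.59 ± 0.14, adjusted p = 0.0505, and -0.51 ± 0.14, adjusted p = 0.0692). For both genes B28 and B30 held the lowest values, 1280 and 1490 CPM of Cyp2f2 and 2270 and 2220 CPM of Cbr2, and the macrophage genes Chil3 and Gpnmb were highest in the same libraries. In all, 7 of 8 exenatide lungs had less Cyp2f2 than any aged control. Within batches the airway secretory median changed sign, being -0.36 in batch 2 and 0.19 in batch 3, and the ciliated median was -0.12 and 0.06.

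**Figure D4:**
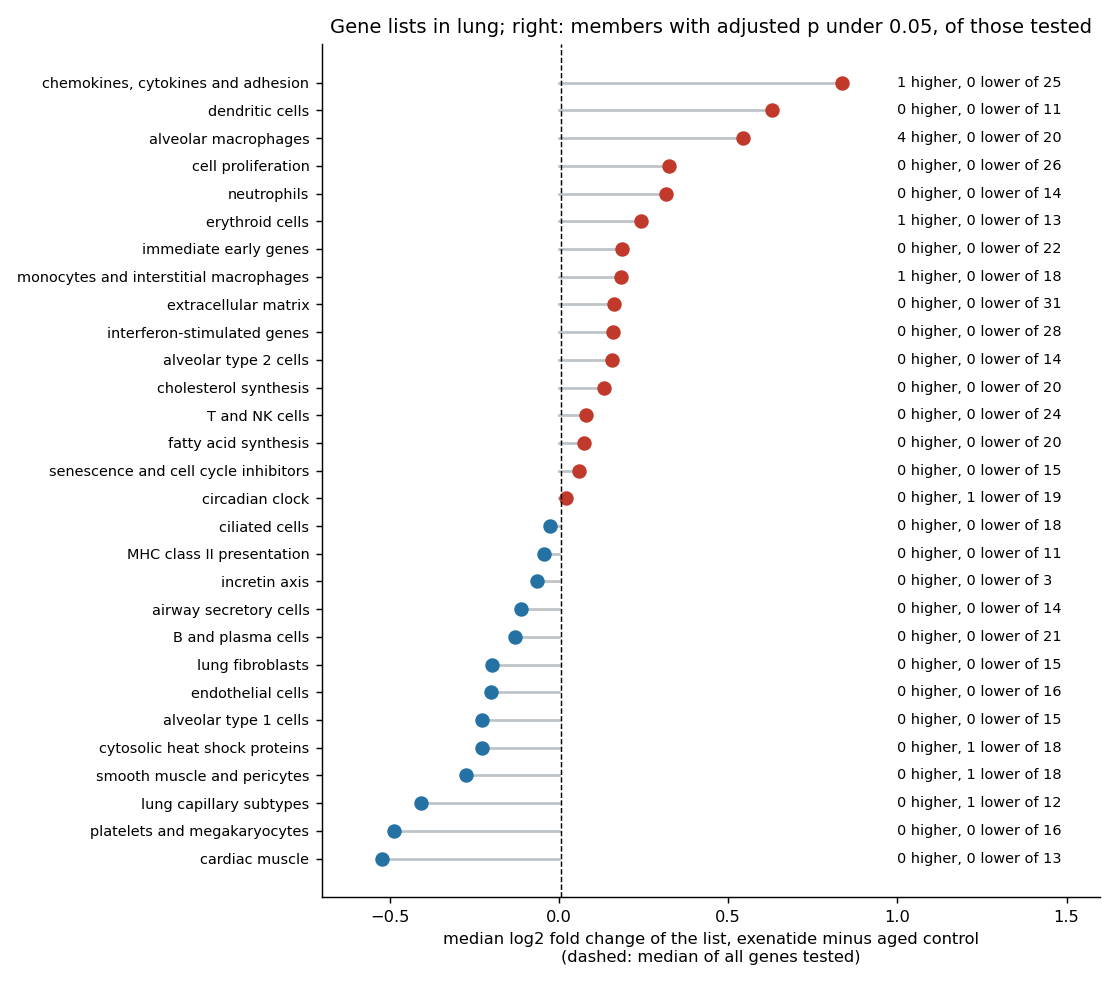
Median log2 fold change (exenatide minus aged control, x axis) of each gene list plotted, with the number of its tested members that passed the test in each direction at the right. Of these lists, chemokines, dendritic cells and alveolar macrophages have the highest medians, and cardiac muscle, platelets and capillaries the lowest, while 4 alveolar macrophage genes are the most called in any of them.

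Signal proteins of inflammation had the highest list median. Of 25 genes of chemokines, cytokines and adhesion, 1 rose and 0 fell, the median was 0.84 and 14 were higher at an unadjusted p under 0.05, against 1 lower. Selp, P-selectin of activated endothelium and platelets, was the called gene, with 5.83 to 14.6 CPM (median 10.1) after exenatide and 4.68 to 6.70 CPM (median 5.87) in aged controls (0.85 ± 0.17, adjusted p = 0.0418). The chemokine Ccl6 had 157 to 1230 CPM (median 420) after exenatide and 138 to 348 CPM (median 191) in aged controls (1.21 ± 0.34, adjusted p = 0.0888), and the low Cxcl1 and Ccl3 had folds of 1.42 ± 0.44 and 1.56 ± 0.49 (adjusted p = 0.114 and 0.117). Without B28 and B30 the list median was 0.43 and 0 of its genes were called. Among exenatide lungs, the summed CPM of this list and that of the alveolar macrophage list were both highest in B28. A relation between the 2 lists was not tested.

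Among blood and immune cells, edgeR called 0 genes of dendritic cells (11 tested, median 0.63, 5 higher and 0 lower unadjusted), neutrophils (14 tested, 0.32, 1 and 0), T and NK cells (24 tested, 0.08, 4 and 0) or B and plasma cells (21 tested, -0.13, 0 and 0). Interferon-stimulated genes (28 tested, 0.16, 0 and 0) and MHC class II genes (11 tested, -0.04, 1 and 0) also had 0 called. Cell proliferation genes had a median of 0.33, with 25 of 26 positive (51% over all genes) and 0 called. Unadjusted, 3 of the 26 were higher, against 1700 of all 17743 genes. Leaving out B28 and B30 brought that median to 0.035 and that of dendritic cells to 0.18. The medians of some lists changed sign between the batches. Neutrophil genes had a median of 0.85 in batch 2 and -0.50 in batch 3, T and NK cell genes 0.34 and -0.32, monocyte and interstitial macrophage genes 0.32 and -0.16, and MHC class II genes 0.16 and -0.37.

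Ahsp, the chaperone of alpha-globin in red cell precursors, was the 1 of 13 erythroid genes that rose, with 0.669 to 5.41 CPM (median 1.90) in exenatide lungs and 0.311 to 0.570 CPM (median 0.413) in aged control lungs, without overlap (2.54 ± 0.42, adjusted p = 0.0127). Its values were low, and those in B28, B30 and B40 (5.41, 4.12 and 4.46 CPM) were highest. The other 12 erythroid genes were not called. Epb42, a red cell membrane protein, came next (1.45 ± 0.36, adjusted p = 0.0545), and the list median was 0.24. Platelet genes had a median of -0.49, with 0 of 16 called, 0 higher and 9 lower unadjusted. Ppbp, the platelet chemokine precursor, had 14.2 to 55.7 CPM (median 34.6) after exenatide and 40.5 to 77.8 CPM (median 57) in aged controls (-0.72 ± 0.25, adjusted p = 0.154). Transcripts of cardiac muscle, which sheathes the pulmonary veins of mice, summed to 76.7 to 1230 CPM in exenatide lungs and 533 to 2340 CPM in aged control lungs, a wide range in both (0 of 13 called, median -0.52, 0 higher and 0 lower unadjusted). Lists of squamous epithelium (3 tested), mast cells and basophils (7 tested) and skeletal muscle (8 tested) had medians of -0.63, -0.52 and -0.42, with 0 genes called in each and, unadjusted, 0, 0 and 2 higher and 0, 2 and 0 lower.

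Matrix and lipid synthesis lists held no called gene. The 31 extracellular matrix genes had a median of 0.16 (6 higher and 0 lower unadjusted) and the 15 fibroblast genes one of -0.20 (1 and 5). Among 20 cholesterol synthesis genes the median was 0.13 (5 and 0), with Cyp51 at 0.60 ± 0.16 (adjusted p = 0.0648). Among 20 fatty acid synthesis genes it was 0.07 (6 and 0). Scd1, the desaturase that makes oleate, had 922 to 3130 CPM (median 2100) after exenatide and 891 to 1410 CPM (median 1220) in aged controls (0.83 ± 0.21, adjusted p = 0.0548). The immediate early genes had a median of 0.18 (22 tested, 7 and 1) and the senescence and cell cycle inhibitor genes one of 0.06 (15 tested, 5 and 2).

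The gene of the drug's receptor did not pass the test. Glp1r had 4.90 to 43.9 CPM (median 28.8) in exenatide lungs, 9.73 to 37.7 CPM (median 29.3) in aged control lungs and 24.8 to 54.1 CPM (median 37.5) in young lungs. Its fold was 0.06 ± 0.25 after exenatide (adjusted p = 0.918), and B36 had the least (4.90 CPM). Dpp4, the protease that inactivates the hormone, had medians of 127 and 131 CPM in exenatide and aged control lungs (-0.07 ± 0.13, adjusted p = 0.820), and the glucagon receptor gene Gcgr stayed at or below 1.89 CPM. These 3 of 7 incretin genes passed the filter on low counts, with 0 called and 0 at an unadjusted p under 0.05.

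The same fit gave values for age (aged minus young controls), where 645 genes rose (3.64%) and 495 fell (2.79%). Because both comparisons use the aged controls, a noisy control value moves the 2 folds in opposite directions, so values are given side by side and nothing is read from their signs. Phex, an endopeptidase known from phosphate handling in bone, fell with age by 2.41 ± 0.26 (adjusted p = 3.15e-06) and rose after exenatide by 1.43 ± 0.26 (adjusted p = 0.0244). It had 1.95 to 6.47 CPM (median 3.44) in exenatide lungs, 1.10 to 2.19 CPM (median 1.21) in aged control lungs and 4.50 to 10.4 CPM (median 7.91) in young lungs. Exenatide lungs were thus between the other 2 groups by median. Ahnak2 had -0.61 ± 0.11 with age (adjusted p = 0.00150), Ceacam16 -0.91 ± 0.26 (adjusted p = 0.0358), Selp -0.65 ± 0.17 (adjusted p = 0.0257), Acox3 -0.35 ± 0.09 (adjusted p = 0.0179), Manba -0.28 ± 0.07 (adjusted p = 0.0202) and Prcp -0.44 ± 0.12 (adjusted p = 0.0303), all falls. Rises with age were seen in Ip6k3 (1.10 ± 0.22, adjusted p = 0.00357), B4galt4 (0.41 ± 0.10, adjusted p = 0.0114), Tcim (0.39 ± 0.12, adjusted p = 0.0448) and Rd3 (0.42 ± 0.12, adjusted p = 0.0418).

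Gpnmb, Chil3, Itgax and Hdac9 were not called with age. Gpnmb had -0.21 ± 0.49 (adjusted p = 0.841), Chil3 -0.45 ± 0.46 (adjusted p = 0.617), Itgax -0.63 ± 0.29 (adjusted p = 0.203) and Hdac9 0.29 ± 0.13 (adjusted p = 0.211). Marco fell with age by 1.36 ± 0.37 (adjusted p = 0.0290), and Spp1 rose by 1.70 ± 0.21 (adjusted p = 1.78e-05). Spp1 thus had 205 to 512 CPM in exenatide lungs, 216 to 522 CPM in aged control lungs and 47.2 to 148 CPM in young lungs. By list, 15 of 16 platelet genes rose with age and 0 fell, 16 of 31 matrix genes fell and 0 rose, 7 of 14 type 2 cell genes fell and 0 rose, and 7 of 18 ciliated cell genes rose and 0 fell.

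The exenatide effect was also compared with that in heart and kidney of the same cohort, each with 8 exenatide-treated, 9 aged control and 8 young mice. Heart libraries were sequenced in batches 2 and 3 like those of lung, but kidney libraries in batches 1 (15 libraries) and 3 (10 libraries), and each tissue had a batch term of its own. The test asks whether the fold in lung differs from that in the other tissue. Against heart, 2 of 18455 genes differed (0.0108%), and 0 of the 108 genes called in lung were among them. With the animal as a block, 3 genes differed, of which 1, Chn1 (difference -0.49, adjusted p = 0.0177), was called in lung. A test that misses the threshold does not show equal effects. Hdac9 had 0.62 ± 0.12 in heart (difference 0.16 ± 0.18, adjusted p = 0.839), Chil3 1.996 ± 0.83 (0.13 ± 1.16, adjusted p = 0.993), Hspb1 -0.83 ± 0.24 (-0.61 ± 0.34, adjusted p = 0.604) and Ahnak2 -0.03 ± 0.14 (0.74 ± 0.20, adjusted p = 0.149).

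Against kidney, 1624 of 18977 genes differed (8.56%), 569 with the animal as a block. Batch 3, the one batch that both tissues share, gave 3571 of 19159 genes when fitted alone, an alternative chosen after seeing the data. Of the 108 genes called in lung, 55 differed, 35 with the block and 33 in batch 3 alone, where all 55 had a difference of the same sign. The 108 genes were chosen by their lung result, which enters the difference, so a share above that of all genes was built in. The batch 3 libraries are part of those that gave the 55 calls, so the shared sign is not separate support. For the other libraries, a difference between lung and kidney and one between batches 2 and 1 cannot be told apart. Acta2 had -0.53 ± 0.13 in lung and 0.91 ± 0.15 in kidney, the difference being -1.47 ± 0.21 (adjusted p = 0.000223) over all libraries and -0.72 ± 0.39 (adjusted p = 0.214) in batch 3 alone. Inpp5a had a kidney fold of 0.43 ± 0.09 (difference -0.88 ± 0.14, adjusted p = 0.000281) and Enho one of 0.59 ± 0.22 (difference -1.60 ± 0.31, adjusted p = 0.00165). The folds of these 3 genes were negative in lung and positive in kidney. Gpnmb had -0.19 ± 0.52 in kidney (difference 2.84 ± 0.67, adjusted p = 0.00874), Itgax -0.09 ± 0.25 (difference 1.35 ± 0.35, adjusted p = 0.0147) and Atp6v0d2 -0.15 ± 0.25 (difference 1.53 ± 0.35, adjusted p = 0.0067), each still called with the block (adjusted p = 0.0264, 0.00618 and 0.0464). In batch 3 alone the differences were 2.55, 1.57 and 2.19 (adjusted p = 0.0885, 0.0169 and 0.00138). The lysosomal enzyme genes Galc (-0.33 ± 0.09) and Manba (-0.25 ± 0.08) had negative kidney folds, with differences of 0.75 ± 0.12 and 0.55 ± 0.11 (adjusted p = 0.000414 and 0.00232). For other genes the test of the difference was not passed over all libraries: Ahnak2 had 0.72 ± 0.23 in kidney (difference -0.01 ± 0.20, adjusted p = 0.998), Ciart -0.61 ± 0.25 (-0.15 ± 0.36, adjusted p = 0.836), Chil3 1.59 ± 0.77 (0.53 ± 0.94, adjusted p = 0.764) and Selp 1.48 ± 0.29 (-0.65 ± 0.36, adjusted p = 0.236). In batch 3 alone, edgeR gave larger positive differences for Chil3 (2.28, adjusted p = 0.0602) and Ahnak2 (0.64, adjusted p = 0.248). Those of Ciart and Selp were -0.25 and -0.40 there (adjusted p = 0.740 and 0.644). Similar folds over all libraries therefore do not show that these genes responded alike in both tissues.

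**Figure D5:**
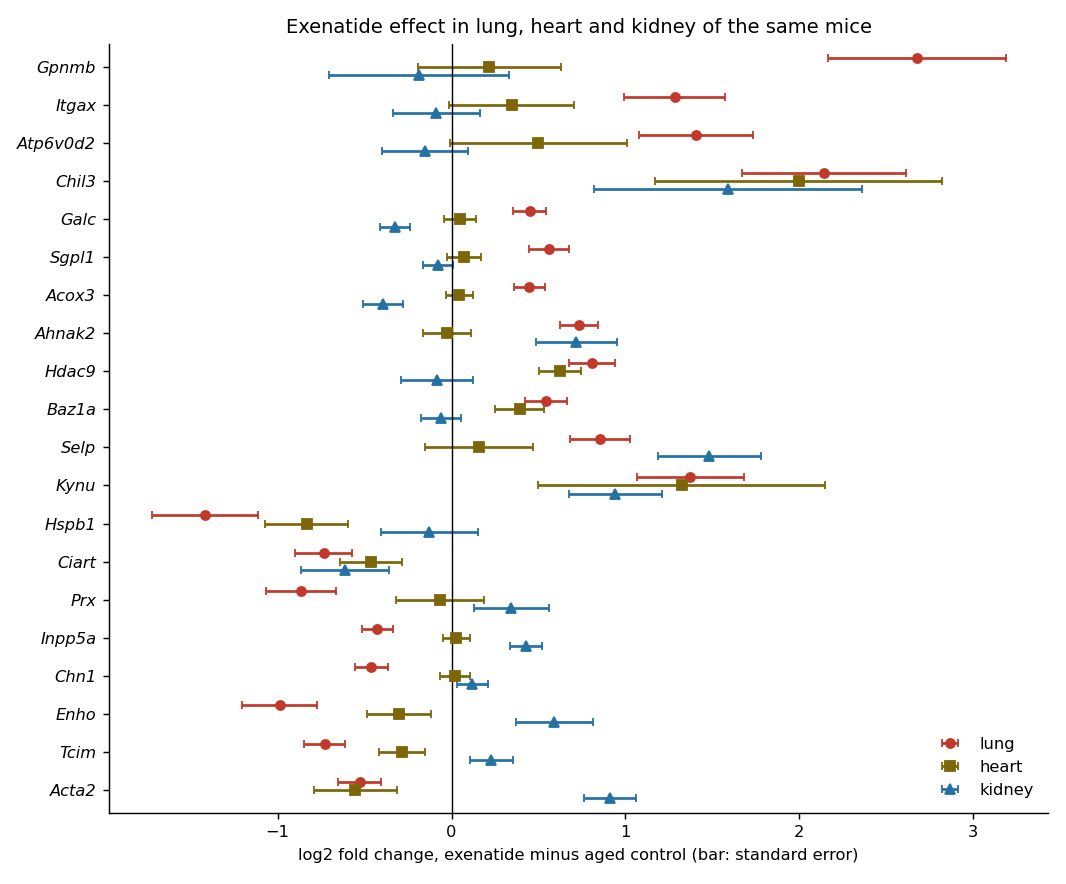
Log2 fold change, exenatide minus aged control, with its standard error (x axis) for 20 genes called in lung, in lung, heart and kidney. Acta2, Enho and Inpp5a are negative in lung and positive in kidney, Gpnmb, Itgax and Atp6v0d2 are near 0 in kidney, and Chil3 and Ciart have the same sign in all 3 tissues. The folds are over all libraries of each tissue, and lung and kidney share batch 3 alone.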

How the data were processed

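Poly(A) RNA-seq libraries of mouse lung, heart and kidney were analysed from the gene table of the long-term cohort. The values are whole-number read counts per gene, as deposited by the authors. Libraries were made with a NEBNext Ultra II kit, per the labels' protocols. FastQC 0.11.9 and the build GRCm39 are named in the submitters' processing notes, with no aligner or counter given in the labels or headers used here. The counting is not stated to use strand, so overlapping genes are uncertain. Groups, tissues and batches came from the sample labels. Replicates are separate animals.

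Counts of 24 lung libraries (25881149 to 31927624 reads each) were fitted with edgeR 4.0.16 in R 4.3.3 (TMM scaling, filterByExpr by condition, robust quasi-likelihood F test, batch as covariate). Benjamini-Hochberg adjustment ran over all 17743 genes, with a threshold of 0.05. Principal components used limma 3.58.1 and a prior count of 2. Interaction fits compared lung with heart and kidney. Lung and heart, and lung and kidney, came from the same animals (24 shared). Residuals of the same animal had a mean correlation of 0.101 with heart and 0.04 with kidney, and the animal was a block in an alternative. DESeq2 1.42.0 was another alternative. The scripts were tested on simulated counts.

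Named genes were the 12 called rises and 12 called falls of smallest p with an average log2 CPM of at least 1, the 3 largest of each, up to 4 genes of each list described, the incretin genes and 5 tissue markers. Clone and predicted names were left out. Some genes that the rule names are not reported here. The comparison, gene lists and tests were chosen with earlier results of these data known. Promoter sequences are RefSeq's, GRCm38.p6.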

Additional observations from a re-analysis of the deposited data

Results flagged for a closer look

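In 186 groups of 8 lungs looked at (exenatide or aged control, 1 gene each), 9 held 1 library far from the others, which is about the number that chance gives, at 1 in 20. The measure is the gap to the nearest library divided by the range of the group, both on log2 CPM, while the values in parentheses are CPM. Among exenatide lungs, B40 was highest for 3 genes: Lrrc26 (16.7 CPM against 11.3 in the next library, ratio 0.622), Acta2 (242 against 167, ratio 0.538) and Actg2 (28.8 against 18.0, ratio 0.599). Glp1r was lowest in exenatide lung B36 (4.90 CPM against 18.7, ratio 0.609). Among aged controls, B15 was lowest for the lysosomal enzymes Galc (24 CPM against 31.5, ratio 0.596) and Gla (10 against 12.1, ratio 0.53). The highest aged control was B19 for Dnajb1 (39.4 CPM against 34.3, ratio 0.682), B34 for Pparg (22.9 against 16.8, ratio 0.721) and B16 for Sftpc (15400 against 11300, ratio 0.537).

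The exenatide effect differed between lung and kidney for 36 of the genes named and for Fabp1 (edgeR quasi-likelihood interaction test, adjusted p under 0.05). For 0 of them it differed between lung and heart. Over all genes tested, 8.56% differed between lung and kidney. Most genes named were chosen by their lung result, which enters the difference, so a larger share among them was built in. The difference, lung minus kidney on the log2 scale, was positive for Hdac9 0.86, Ceacam16 1.55, Lilr4b 1.19, Gpnmb 2.84, Acox3 0.82, Zranb3 1.29, Slc39a2 1.98, Sgpl1 0.61, Gpr55 1.68, Stra6l 2.56, Galc 0.75, Lama1 2.79, Manba 0.55, Baz1a 0.58, Prcp 0.68, Itgax 1.35, Gla 0.59, Atp6v0d2 1.53, Epb42 1.77, Cyp51 0.85 and Cxcl1 1.72. It was negative for Tcim -0.98, B4galt4 -0.61, Tceal8 -0.59, Chn1 -0.61, Inpp5a -0.88, Enho -1.60, Hspb1 -1.32, Prx -1.23, Acta2 -1.47, Cnn1 -1.87, Cox4i2 -1.03, Car4 -0.83, Gp9 -2.41, Fabp1 -4.87, Pecam1 -0.75 and Ager -1.17. Cnn1, Acta2 and Pecam1 belong to the muscle and vessel lists, with negative folds in lung and positive folds in kidney. With the animal as a block, the adjusted p of the difference was above 0.05 for Hdac9 (0.0919), B4galt4 (0.0506), Ceacam16 (0.0927), Slc39a2 (0.098), Stra6l (0.0507), Baz1a (0.0509), Gla (0.0813), Epb42 (0.0526), Cyp51 (0.0915), Cxcl1 (0.0957) and Fabp1 (0.0606), and the other genes listed were still called. Lung and kidney share batch 3 alone. In that batch, whose libraries are part of those that gave the calls, all the differences listed kept their sign. Those of Acta2 (-0.72, adjusted p = 0.214), Cnn1 (-0.95, adjusted p = 0.290), Lama1 (0.79, adjusted p = 0.393), Car4 (-0.46, adjusted p = 0.494), Tceal8 (-0.28, adjusted p = 0.427) and B4galt4 (-0.09, adjusted p = 0.863) were smaller by more than 1.5 times. Also not called in batch 3 alone were Acox3 (adjusted p = 0.0542), Gp9 (0.0857), Gpnmb (0.0885), Ceacam16 (0.0952) and Hspb1 (0.0996). The same held for Gla (0.106), Chn1 (0.147), Slc39a2 (0.197), Gpr55 (0.211) and Cxcl1 (0.265).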

How the results depend on the processing

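All 108 genes called in lung kept the sign of their fold wherever they were tested in the alternatives run over whole groups, but most of their calls did not hold. With DESeq2 size factors, 113 genes were called (71 higher, 42 lower), all 108 among them. Without a filter on low counts 39 were called (27 and 12), and without a batch term 63 (49 and 14). Batch 2 alone gave 0 called genes (0 higher and 0 lower) with edgeR, with 2206 at an unadjusted p under 0.05, and batch 3 alone gave 13 (8 and 5). A fit of only the 2 groups compared gave 7 (5 and 2), and DESeq2's Wald test 545 (354 and 191). Without B28 and B30, a choice made after seeing the data, 3 were called (2 and 1). Leaving out 1 library gave 4 to 403 called genes, 3 to 272 higher and 1 to 131 lower. The cause was not tested. For age, batch 3 alone gave 57 called genes (48 higher, 9 lower), a fit of only the 2 groups 2039 (1093 and 946), and the falls numbered 315 without a batch term and 326 in batch 2 alone. Leaving out 1 library gave 725 to 1387 genes called with age, 441 to 800 higher and 284 to 587 lower. With the animal as a replicate block, 569 genes differed between lung and kidney, against 1624 without, and 3 between lung and heart, against 2. Without a filter on low counts, 1 gene differed between lung and heart. Batch 3 alone, chosen after seeing the data, gave 3571 genes for lung against kidney and 0 for lung against heart in edgeR, with 1782 at an unadjusted p under 0.05. Genes below about 1 CPM, such as Ahsp in controls, rest on few reads.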
